A study of Mus musculus and synthetic construct with 32 samples.

Results

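The collagen genes are the family that codes for the chains of the collagens, the triple-helical proteins that make up most of the extracellular matrix. Members were chosen by name alone: every gene whose symbol is Col, digits, a, digits, taken by its sense exon row, with its sense intron row beside it. This gave 44 of 20142 genes in the P8 testis table, 44 of 20215 in the P12 testis table, 43 of 19463 in the P0 ovary table, which has no row for Col10a1, and 44 of 22511 in the m6A table. All 44 symbols matched a protein-coding gene of RefSeq GRCm38.p6. A mean normalized count of at least 10 was reached by the exons of 42 members in the P8 table, 42 in the P12 table, 39 in the ovary table and 43 in the m6A table.

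The study asked which transcripts differ in mice without Ythdc2, which codes for a helicase with a YTH domain, the module that reads the RNA modification N6-methyladenosine (m6A), and which testis transcripts carry m6A. All mice were C57BL/6J. Total RNA, depleted of ribosomal RNA, came from testes of 3 knockout (YTHDC2 -/-) and 3 heterozygous (YTHDC2 +/-) libraries at P12, from testes of 2 knockout, 1 heterozygous and 1 wild type (YTHDC2 +/+) library at P8, and from ovaries of 2 knockout and 2 heterozygous libraries at P0. For m6A, polyadenylated RNA of wild type testis at P8 was fragmented and bound by an anti-m6A antibody, with 1 immunoprecipitate and 1 input library. The controls at P12 and P0 were thus heterozygous and carry 1 knockout allele. Per the labels' protocols there were 2 knockout lines, 1 lacking exon 7 of Ythdc2 and 1 with stop codons placed in it, and the line behind each library is not labelled. Nor do the labels tell whether libraries of a group came from separate animals, so the p-values measure only the spread between these libraries, which may be technical.

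Collagens fall into classes by how they assemble. Fibrillar collagens (types I, II, III, V, XI, XXIV and XXVII) build the cross-banded fibrils of connective tissue, and collagens with interrupted helices (FACIT) sit on the surface of those fibrils. Type IV chains form the sheet-like network of basement membranes, such as those around seminiferous tubules and ovarian follicles, while type VI chains form beaded filaments close to cells. In the gonads they are made mainly by somatic cells: stromal fibroblasts, the contractile peritubular cells of the testis, endothelium, and the supporting cells that lie on a basement membrane. In whole gonads, fewer cells of a type and less RNA per cell cannot be told apart.

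Promoter windows are shown for 3 members whose exon values recur below: Col1a2 and Col3a1, which were among the 3 members with the most exon counts in each total RNA table, and Col8a2, one of the members enriched by the m6A antibody. Each is the 250 bases before the annotated start on the + strand, from RefSeq with build GRCm38.p6, and capitals mark, on either strand, the CCAAT box as CCAAT, the TATA box spelled TATAAA, and the GC box spelled GGGCGG.
Col1a2, chr6:4505368-4505617: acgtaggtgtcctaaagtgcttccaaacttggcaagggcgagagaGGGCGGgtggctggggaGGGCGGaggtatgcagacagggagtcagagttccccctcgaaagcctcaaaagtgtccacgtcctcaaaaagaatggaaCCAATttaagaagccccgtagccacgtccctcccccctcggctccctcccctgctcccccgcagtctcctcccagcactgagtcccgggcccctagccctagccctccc
Col3a1, chr1:45311288-45311537: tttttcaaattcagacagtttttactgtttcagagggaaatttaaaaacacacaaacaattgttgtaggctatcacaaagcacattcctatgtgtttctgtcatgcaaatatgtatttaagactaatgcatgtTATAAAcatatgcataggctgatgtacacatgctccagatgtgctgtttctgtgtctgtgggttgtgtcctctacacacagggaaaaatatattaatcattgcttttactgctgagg
Col8a2, chr4:126286544-126286793: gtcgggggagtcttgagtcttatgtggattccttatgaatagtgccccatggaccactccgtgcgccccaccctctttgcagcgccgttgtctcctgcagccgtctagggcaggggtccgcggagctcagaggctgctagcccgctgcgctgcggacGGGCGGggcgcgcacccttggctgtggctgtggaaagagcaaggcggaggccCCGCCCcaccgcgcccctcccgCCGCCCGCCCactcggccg
The Col1a2 window held 1 CCAAT box and 2 GC boxes, the Col3a1 window 1 TATA box and neither of the other motifs, and the Col8a2 window 4 GC boxes, of which 2 overlap. Among 38 windows of 35 collagen genes, the CCAAT box was found in 34.2%, the TATA box in 13.2% and the GC box in 57.9%. Among all 32851 windows of that length the shares were 33.8%, 12.4% and 32.7%. These windows were not matched to those of the collagen genes, and a difference in shares was not tested. Such matches describe letters in the window and not sites of binding.

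Collagen genes made up a larger share of the sense exon counts in ovary than in testis. The 43 members took 2.60% of the sense exon counts in the authors' deposited table for P0 ovary, against 1.05% at P8 and 1.01% at P12 in testis. The sense exon counts of a table sum to 1.88e+07 for P8, 1.895e+07 for P12, 7.98e+06 for ovary and 1.84e+07 for m6A. Counts of all features, introns included, sum to 4.22e+07 for P8, 3.71e+07 for P12 and 2.38e+07 for ovary. Sense exons are a smaller part of that sum in ovary, so the gap would be smaller on that base. These sums come from mean normalized counts over all libraries of a table, knockouts included, so they have no spread, and the tables were normalized separately. Levels set across tables below are therefore a description without a test, and since the ovaries were taken at P0 and the testes at P8 and P12, organ and age cannot be told apart. Col3a1, the chain of type III collagen in the fibrils of soft, extensible organs, alone took 24.1% of the collagen exon counts at P8, 28.2% at P12 and 29.7% in ovary, a share that also depends on transcript length.

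Col1a1 and Col1a2, the chains of type I collagen, and Col4a1, Col4a2, Col6a1 and Col6a3 were, with Col3a1, among the 8 members with the most counts in both testis tables. In ovary the 8 were Col3a1, Col1a1, Col1a2, Col6a3, Col6a1, Col6a2, Col5a2 and Col5a1, so that the network chains of type IV dropped out of the list and type V, which sets fibril diameter, entered it.

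Scaled to counts per 1000000 of each table's sense exon counts (CPM), 37 members had a row in all 3 tables and a mean count of at least 100 in at least 1. Of these, 29 were higher in ovary than in both testis tables and 8 were lower. On another base, members with a small gap could change sides, such as Col18a1 with 369 at P8, 318 at P12 and 379 in ovary. All 9 fibrillar members among the 37 were higher in ovary. Such counts were not made over all genes, so they show no trait particular to the collagen genes. Col1a1 stood at 803 CPM at P8, 794 at P12 and 3850 in ovary, from the authors' deposited tables. Col3a1 stood at 2530, 2840 and 7735 in the same order, and Col5a1 at 236, 179 and 995. The widest gap on the ovary side was in Col12a1, a FACIT collagen of dense connective tissue, with 65.8 at P8, 62.8 at P12 and 694 in ovary. Col14a1, another FACIT collagen, had 110, 129 and 618.

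Type IV collagen went the other way for 4 of its 6 chains. Col4a3, whose chain joins those of Col4a4 and Col4a5 in a trimer best known from the kidney glomerulus, had 296 CPM at P8, 264 at P12 and 31.2 in ovary in the authors' deposited tables, a P12 level 8.46 times that of ovary. Col4a4 had 407, 268 and 69.9. For Col4a1 and Col4a2, the chains of the common type IV trimer, the gap was small, with 884, 715 and 645 for Col4a1 and 575, 404 and 386 for Col4a2. Col4a5 and Col4a6 were higher in ovary, at 340 and 169 CPM against 141 and 54.5 at P12. The neighbouring pair Col4a3 and Col4a4 thus lay on the testis side and the neighbouring pair Col4a5 and Col4a6 on the ovary side.

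The other members lower in ovary were Col22a1, a FACIT collagen of tissue junctions, Col9a3, Col17a1, a transmembrane collagen of epithelial anchoring plaques, and Col6a4. Col22a1 had 18.4 CPM at P8, 17.7 at P12 and 3.55 in ovary, and Col6a4 had 107, 71.9 and 36.6, per the authors' deposited tables. Among the beaded filament genes Col6a4 was the exception, since the other 5 of 6 were higher in ovary, led by Col6a6 with 59.9, 45.9 and 304. Between the testis tables, 32 of the 37 members differed by less than 1.5 times, a count that was not made over all genes either.

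**Figure D1:**
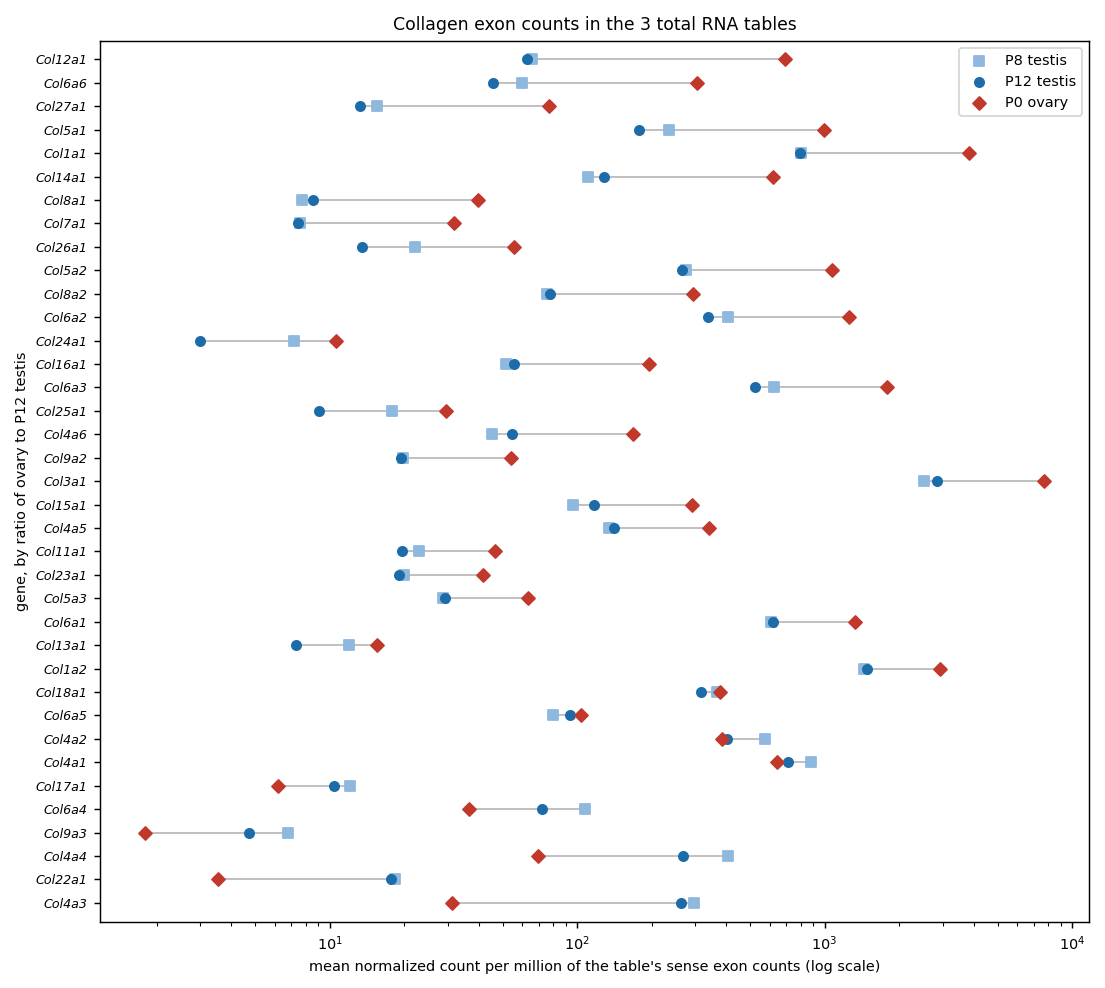
Mean normalized exon count of 37 collagen genes per 1000000 sense exon counts of each table, on a log axis, for P8 testis (squares), P12 testis (circles) and P0 ovary (diamonds), with genes ordered by the ratio of ovary to P12 testis. Each point is a mean over all libraries of a table and has no error. The ovary point lies to the right for 29 genes and to the left for 8, with Col12a1 at the top and Col4a3 at the bottom.

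The tissue labels of P12 testis and ovary match Dhh, Sox9 and Foxl2. Dhh and Sox9, markers of the supporting cells of the testis, had mean normalized counts of 3126 and 1399 in the authors' deposited table for P12 testis and 63.3 and 125 in that for ovary. Foxl2, a marker of the ovarian supporting cells, had 195 in ovary and 2.87 at P12. Of the other testis supporting cell markers, Amh had 1116 at P12 and 75.9 in ovary, Gata4 2429 and 777, and Wt1 3377 and 2287. The other ovarian ones, Fst, Irx3, Wnt4 and Rspo1, had higher counts in ovary than at P12. These counts are not scaled to each table's sum, which was lower for ovary, so those of Wt1 give no direction. Ythdc2 itself had a log2 fold of knockout over control of -1.29 at P12 (DESeq2 adjusted p = 9.87e-25). It was -0.43 in ovary (adjusted p = 0.584), and at P8 it was -0.50 over the wild type and -0.24 over the heterozygote (adjusted p = 1 for both), all in the authors' deposited tables. A count over all exons is no check of a change to exon 7 alone.

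In P8 testis, all 9 FACIT genes at the count floor, 5 of 6 type IV and 9 of 11 fibrillar genes had exon folds below 0 after the m6A antibody, and all 6 type VI genes had folds above 0; a difference between classes was not tested. The authors' deposited table gives a log2 fold of immunoprecipitate over input, where a fold below 0 means that the gene's fragments were scarcer after the antibody than in the input, relative to the other genes. Of 43 members with an adjusted p, 11 passed 0.05 as lower in the immunoprecipitate and 2 as higher. Across all 15807 genes tested, 26.3% were called lower and 26.9% higher. The collagen share was thus near the background on the lower side (25.6%) and below it on the higher side (4.65%), and this difference was not tested. The median fold of the 43 members was -0.37, with 14 above 0 and 29 below, against a median of -0.01 over 16399 genes with a mean count of at least 10. With 1 immunoprecipitate and 1 input library at P8, the authors' adjusted p-values have no replicate check here, and the table's mean counts run over its libraries of all ages.

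All 9 FACIT members with a row and a mean count of at least 10 had folds below 0, with a median of -0.94, and 3 of them passed. Col14a1, whose product binds fibrils in skin and tendon, had the lowest fold of all members at -1.75 (adjusted p = 9.89e-07, authors' deposited table from DESeq2). Col12a1 was at -1.53 (adjusted p = 2.52e-06) and Col16a1 at -0.94 (adjusted p = 0.000133), per the authors' deposited table. Col20a1, at -1.18, did not pass (adjusted p = 0.112), with a mean count of 136 beside 561 for Col14a1.

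Fibrillar members were below 0 in 9 of 11 cases, and 3 passed: Col3a1 at -1.27 (adjusted p = 4.76e-06), Col11a1, a chain of type XI collagen, at -1.46 (adjusted p = 0.000613), and Col5a3 at -1.28 (adjusted p = 0.00391), per the authors' deposited table. The partner chains of type I did not pass, Col1a1 having -0.38 (adjusted p = 0.246) and Col1a2 -0.48 (adjusted p = 0.140) in the authors' deposited table. Col5a2, which lies beside Col3a1 in the genome, had 0.41 (adjusted p = 0.264). These neighbours, both fibrillar, therefore had folds of opposite sign, of which only that of Col3a1 passed.

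Type IV members passed as lower in 4 of 6 cases. Over all genes with a mean count of at least 100, 32.2% were called lower. Class counts this small, here and for the FACIT and fibrillar members, are no result about a class. In the authors' deposited table Col4a3 had -0.88 (adjusted p = 2.92e-05), Col4a5 -0.81 (adjusted p = 0.00438), Col4a1 -0.70 (adjusted p = 0.000412) and Col4a2 -0.69 (adjusted p = 0.000476). Col4a6 had -0.22 (adjusted p = 0.607) and Col4a4 0.25 (adjusted p = 0.254). The head-to-head genes Col4a1 and Col4a2 had nearly equal folds, while Col4a3 and Col4a4 had folds of opposite sign; a difference between 2 genes was not tested. Of the multiplexins, which lie at the outer face of basement membranes, Col15a1 passed at -0.97 (adjusted p = 0.00025) and Col18a1, the source of endostatin, had -0.37 (adjusted p = 0.187), per the authors' deposited table.

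The 6 beaded filament genes were all above 0, from 0.34 to 0.69 in the authors' deposited table, and none passed. Col6a6 came closest, at 0.69 (adjusted p = 0.0571). The short-chain gene Col8a2, known from the cornea and from vessel walls, passed as higher at 1.11 (adjusted p = 0.00764), and its partner Col8a1 had 0.97 (adjusted p = 0.208) on a mean count of 66.8. The highest fold of all members was that of Col23a1, a transmembrane collagen, at 1.73 (adjusted p = 4.89e-08), while the other transmembrane genes ranged from -0.71 to 0.52 and did not pass, per the authors' deposited table. Col7a1, the chain of anchoring fibrils, had -1.00 (adjusted p = 0.0922).

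Fewer introns than exons of the same genes were called, as over all genes. Of 25 collagen introns with an adjusted p in the m6A comparison, 0 passed, against 8.87% of 9410 introns tested. At such a share a count of 0 of 25 is no result about the family. The median intron fold of 39 members with a mean count of at least 10 was 0.15 in the authors' deposited table. Over all 13055 introns at that floor it was -0.03. Intron counts were low in this polyadenylated RNA, with a mean count of at least 100 for 10 members only. The exon fold lay below the intron fold in 29 of 44 genes, a count taken without a count floor and not made over all genes. Across 39 members, exon and intron folds had a Spearman correlation of 0.11, and across 12583 genes of 0.21; genes that share libraries are not independent replicates.

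**Figure D2:**
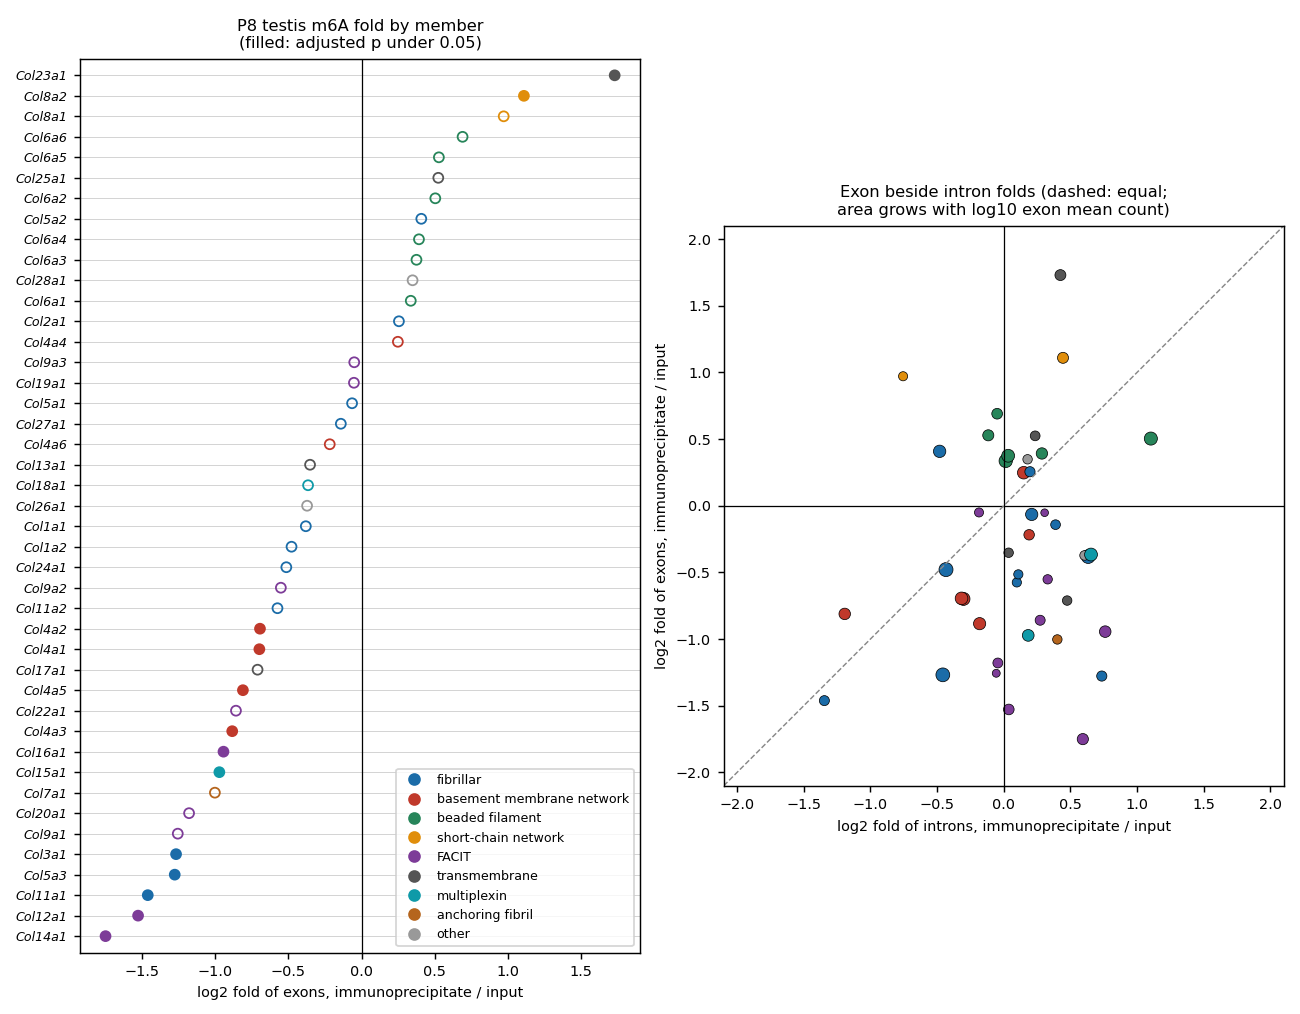
Left, the authors' log2 fold of m6A immunoprecipitate over input in P8 testis for the exons of 43 collagen genes, coloured by class, with filled points for an adjusted p under 0.05. Right, the exon fold beside the intron fold of the same genes, with a dashed line where both are equal. Filled points lie below 0 for 11 genes and above 0 for 2, and all 6 beaded filament genes (green) lie above 0 without passing.

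At P12, when the testis controls have germ cells in early meiosis, no collagen gene passed the test in the knockout. Of 42 members with an adjusted p from DESeq2 in the authors' deposited table, 0 passed 0.05, against 0.849% of 16130 genes tested (137 genes). At such a share a count of 0 is no result about the family. The same holds for the counts of 0 in the other knockout comparisons below. The tables hold adjusted p-values only, so no count at an unadjusted p is given. The 42 folds ran from -0.25 to 0.16, with 22 above 0 and 20 below and a median of 0.01, beside a median of 0.007 over all 15608 genes of the same count floor. The smallest adjusted p of a member was 0.744.

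That value belonged to Col4a4, with a log2 fold of -0.22 on a mean normalized count of 5082 in the authors' deposited table. Its neighbour Col4a3 had -0.13 (adjusted p = 0.944), Col18a1 -0.12, Col9a2, a FACIT chain of cartilage, -0.12, and Col8a1 -0.06; these were the 5 lowest folds among 35 members with a mean count of at least 100. The 5 highest were Col6a6 at 0.16, Col17a1 at 0.16, Col5a2 at 0.15, Col6a5 at 0.14 and Col3a1 at 0.14, with adjusted p-values from 0.955 to 0.986 in the authors' deposited table. The most abundant fibrillar pair stayed close to 0, with Col1a1 at -0.02 and Col1a2 at -0.04.

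By class, 5 of 6 beaded filament genes and 5 of 11 fibrillar genes had folds above 0 at P12, with medians of 0.05 and -0.02. Markers of cells that make collagen stood beside these values without passing. The 5 peritubular and smooth muscle markers (among them Acta2 at 0.19 and Cnn1 at 0.43) were all above 0 with a median of 0.22 in the authors' deposited table, as were the 5 endothelial markers with a median of 0.21. Of the 5 stromal and fibroblast markers 3 were above 0, with a median of 0.07, and the 5 Sertoli markers were all below 0 with a median of -0.08, in the same table. Among the lists fixed for other cells, Cyp17a1, a Leydig cell enzyme, passed at 0.76 (DESeq2 adjusted p = 0.000122) and Sycp3, a protein of the meiotic chromosome axis, at -0.66 (adjusted p = 0.00407). Of the other Leydig markers, Star (0.25), Hsd3b1 (0.18) and Cyp11a1 (0.07) did not pass, and Insl3 had no adjusted p. The other germ cell markers, Ddx4 (-0.12), Mael (-0.08), Tdrd1 (-0.02) and Dazl (0.03), did not pass. The part of such cells in the collagen folds was not tested.

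In newborn ovary most collagen genes lay slightly above 0, and none passed the test. Of 39 members with a mean count of at least 10, 31 had a fold above 0 and 8 below in the authors' deposited table, with a median of 0.10, while 7559 of 14606 genes at this floor were above 0, with a median of 0.005. Adjusted p under 0.05 was reached by 0 of 40 members tested, against 0.536% of 14935 genes (80 genes). The smallest adjusted p of a member was 0.654. Members share the same 2 knockout and 2 heterozygous libraries, so their signs are not independent observations. A lean above 0 was also seen without knockout libraries. In P8 testis, the heterozygote over the wild type had 29 of 42 members above 0, from 1 library each. Whether the lean in ovary comes with the knockout was not tested.

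The 5 highest folds among 33 members with a mean count of at least 100 were Col11a1 at 0.35, Col6a3 at 0.33 (adjusted p = 0.654), Col14a1 at 0.28 (adjusted p = 0.890), Col6a1 at 0.23 and Col3a1 at 0.23 in the authors' deposited table from DESeq2. Col6a3 codes for the largest type VI chain, and Col6a1 and Col6a2 (0.22) for its partners. All 6 beaded filament genes were above 0, with a median of 0.20. Of 10 fibrillar genes at the count floor 8 were above 0, with a median of 0.14, including Col1a1 at 0.14 and Col1a2 at 0.16.

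The 5 lowest were Col15a1 at -0.18, Col4a6 at -0.12, Col4a5 at -0.02, Col18a1 at -0.01 and Col5a1 at -0.01 in the authors' deposited table, so that both multiplexins and the X-linked type IV pair were below 0. Col4a3 and Col4a4, the lowest members at P12 among those with a mean count of at least 100, were at 0.15 and 0.13 here. Across 39 members, folds at P12 and in ovary had a Spearman correlation of 0.05 and the same sign in 20 genes; the 2 tables share no libraries.

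In the same ovary comparison 3 of 5 oocyte markers and 2 of 5 germ cell markers passed as lower. The oocyte genes Nlrp5, Nobox and Figla fell, with folds of -2.51, -1.79 and -1.41 and adjusted p-values of 2.21e-44, 1.72e-22 and 4.20e-14 in the authors' deposited table from DESeq2, while Zp3 (-0.28) and Gdf9 (-0.48) did not pass. The germ cell genes Tdrd1 and Mael fell as well, at -1.83 and -1.21, and Ddx4 (-0.34), Dazl (-0.15) and Sycp3 (-0.13) did not pass. The 5 peritubular and smooth muscle markers were all above 0 with a median of 0.37 and none passed, Tagln coming closest at 0.48 (adjusted p = 0.0600). The 5 stromal markers were all above 0 with a median of 0.13 and none passed. Endothelial markers were mixed, with Pecam1 at 0.03, Cdh5 at -0.17, Kdr at 0.13, Tek at 0.02 and Emcn at -0.05. Of the Sertoli markers, Dhh had 0.34, Amh 0.28, Gata4 0.17, Sox9 0.15 and Wt1 -0.02. Of the Leydig markers, Cyp17a1 had 0.28, Cyp11a1 0.16, Star 0.07 and Hsd3b1 0.06, and Insl3 had no adjusted p. None of these passed, and folds above 0 were not particular to the muscle and stromal lists. The part of a different share of germ cells or of stroma in the collagen folds was not tested.

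**Figure D3:**
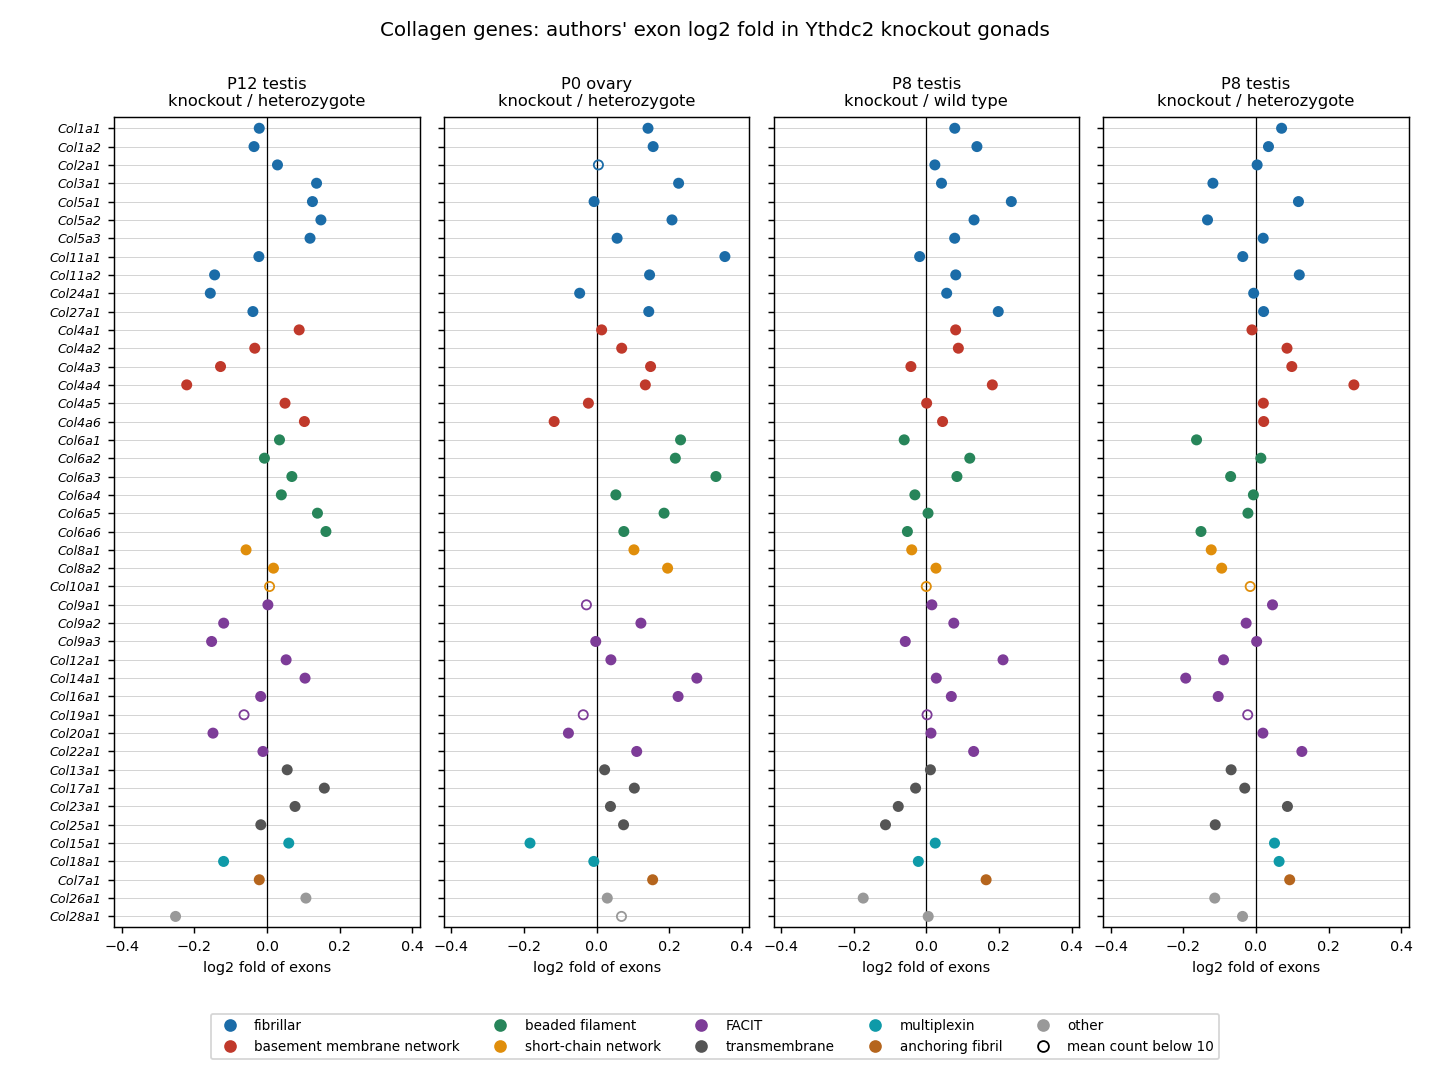
The authors' exon log2 fold of knockout over control for each collagen gene, coloured by class, in P12 testis, P0 ovary and P8 testis (over wild type, over heterozygote). Open points mark mean counts below 10, and no error is given in the tables. Points scatter around 0 at P12 (22 above, 20 below at the count floor) and lie mostly to the right in ovary (31 above, 8 below); none passed the test.

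At P8, before most germ cells have entered meiosis, the count was 0 as well. Against the single wild type library, 0 of 44 members passed in the authors' deposited table (DESeq2 adjusted p = 1 for each), and 0.035% of 20003 genes did. Against the single heterozygous library 0 of 44 passed, with 0.045% of all genes. The 2 comparisons share the knockout libraries, so their values are given side by side and no agreement is drawn from them.

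Against the wild type, 30 of 42 members at the count floor lay above 0. Their median was 0.03, with a range from -0.17 to 0.23. Of all genes at this floor, 7813 of 15592 lay above 0, with a median of 0.0001. Against the heterozygote 21 of 42 members lay above 0. Their median was -0.002, with a range from -0.19 to 0.27. There 8047 of 15592 genes lay above 0, with a median of 0.003. Among 37 members with a mean count of at least 100, the highest against the wild type were Col5a1 at 0.23, Col12a1 at 0.21, Col27a1 at 0.20, Col4a4 at 0.18 and Col7a1 at 0.16, and the lowest Col26a1 at -0.17, Col25a1 at -0.11, Col23a1 at -0.08, Col6a1 at -0.06 and Col9a3 at -0.06, per the authors' deposited table. Col26a1 is a small collagen first described in testis and ovary. Against the heterozygote the highest among the same 37 were Col4a4 at 0.27, Col22a1 at 0.13, Col5a1 at 0.12, Col4a3 at 0.10 and Col7a1 at 0.09, and the lowest Col14a1 at -0.19, Col6a1 at -0.16, Col6a6 at -0.15, Col5a2 at -0.13 and Col8a1 at -0.12 in the authors' deposited table.

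Folds of several members depended on which control library was used. Col12a1 was at 0.21 over the wild type and -0.09 over the heterozygote, and Col5a2 at 0.13 and -0.13 in the authors' deposited table. A gene's fold of the heterozygote over the wild type is the gap between these folds, so it is no separate observation. In the heterozygote over the wild type, a comparison of 1 library each, Col12a1 had 0.30, Col5a2 0.26, Col14a1 0.22, Col27a1 0.18 and Col16a1 0.17 as the 5 highest of these 37, and Col23a1 (-0.16) and Col4a3 (-0.14) were lowest. There 29 of 42 members lay above 0 with a median of 0.03, and 0 passed, against 0.01% of all genes. Of all genes at the count floor, 7832 of 15592 lay above 0 in this comparison, with a median of 0.0003. By fold size, most of the listed spermatid transcripts stood apart in the same heterozygous library, per the authors' deposited table. Not all of them passed the test. Its folds over the wild type were 0.74 for Prm2, 0.51 for Prm1, 0.45 for Tnp2, 0.35 for Tnp1 and 0.05 for Acrv1. The knockouts over the heterozygote had -1.03, -0.70, -0.67, -0.47 and -0.07 in the same order. Whether this library's makeup bears on the collagen values was not tested.

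Intron reads, which come mostly from unspliced transcripts, likewise gave 0 collagen genes that passed in the knockouts. The counts passing were 0 of 41 members at P12 (1.02% of all introns tested), 0 of 43 in ovary (0.213%), and at P8 0 of 43 over the wild type (0.0108%) and 0 of 43 over the heterozygote (0.0162%), with 0.0108% for the heterozygote over the wild type. Exon and intron folds of the members ran together, with a Spearman correlation of 0.65 over 41 members at P12 and 0.54 over 39 in ovary, beside 0.58 and 0.42 over all genes. At P8 it was 0.53 over the wild type and 0.46 over the heterozygote, over 41 members, beside 0.43 and 0.42 over all genes. In the heterozygote over the wild type at P8 it was 0.83 over 41 members and 0.37 over all genes. These are descriptions across genes that share libraries.

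The type VI genes on chromosome 9 included the highest intron fold of the family at P12 and in ovary, a pattern that was noticed after the values were seen. Col6a6, Col6a5 and Col6a4 lie next to each other at chr9:105689417-106096828 (GRCm38), 27.8 and 27.9 kb apart. At P12 the intron fold was 0.52 for Col6a5 (adjusted p = 0.247), 0.49 for Col6a6 (adjusted p = 0.295) and 0.09 for Col6a4 in the authors' deposited table from DESeq2. In ovary it was 0.61 for Col6a5 (adjusted p = 0.0968), 0.30 for Col6a4 and 0.07 for Col6a6. At P8 against the wild type the folds were 0.07, 0.13 and 0.04 for Col6a5, Col6a6 and Col6a4. Col6a5 thus had the highest intron fold both at P12 and in ovary, on intron mean counts of 119 and 124, and it passed in neither table. Its exon folds were smaller, at 0.14 and 0.19.

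Other introns with large folds at P12 were Col4a6 and Col3a1, at 0.31 each, Col5a2 at 0.30, Col24a1 at -0.43 (adjusted p = 0.316) and Col16a1 at -0.30 in the authors' deposited table. The adjacent genes Col3a1 and Col5a2, 24.6 kb apart on chromosome 1, had nearly equal folds there in introns and in exons (0.14 and 0.15).

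**Figure D4:**
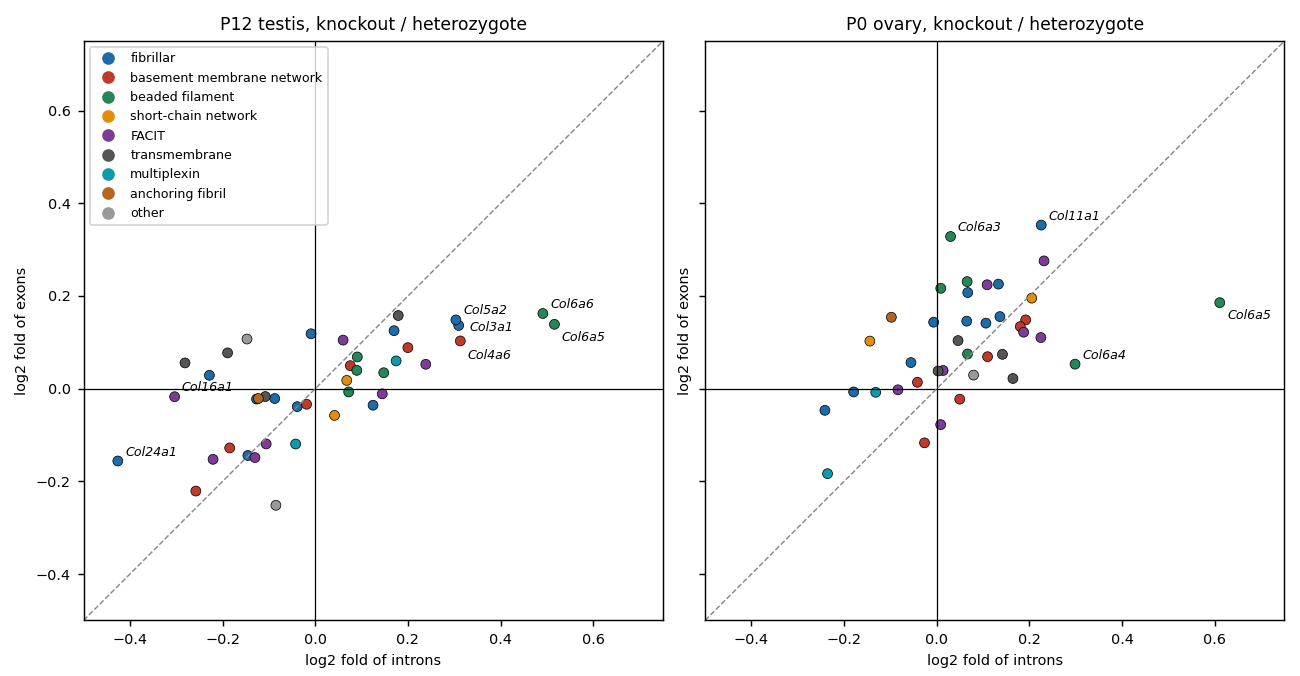
The authors' exon log2 fold of knockout over heterozygote against the intron fold of the same collagen genes whose exons and introns both reach a mean count of 10, in P12 testis (41 genes) and P0 ovary (39 genes), coloured by class. The dashed line marks equal folds. Col6a5 lies farthest to the right in both panels, at intron folds of 0.52 and 0.61 that did not pass the test.

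Type IV genes are arranged in pairs whose starts face each other, so neighbours can be read together. Col4a1 and Col4a2 overlap by 85 bases on chromosome 8 and Col4a3 and Col4a4 by 114 bases on chromosome 1, while Col4a5 and Col4a6 start 1274 bases apart on the X chromosome (RefSeq, GRCm38.p6). The library kit keeps the strand, but how reads in an overlap were counted is not given in the labels or headers. At P12 the exon folds in the authors' deposited table were 0.09 and -0.03 for Col4a1 and Col4a2, -0.13 and -0.22 for Col4a3 and Col4a4, and 0.05 and 0.10 for Col4a5 and Col4a6. In ovary they were 0.01 and 0.07, 0.15 and 0.13, and -0.02 and -0.12 in the same order. The Col6a1 and Col6a2 pair, 85.2 kb apart on chromosome 10, had 0.03 and -0.01 at P12 and 0.23 and 0.22 in ovary. In these 2 tables the partners lay farthest apart for Col4a1 and Col4a2 at P12, and none of these folds passed the test. At P8 over the wild type Col4a1 and Col4a2 had 0.08 and 0.09, and Col4a3 and Col4a4 -0.04 and 0.18. Col4a5 and Col4a6 had 0.001 and 0.04 there, and Col6a1 and Col6a2 -0.06 and 0.12. Over the heterozygote the pairs had -0.01 and 0.09, 0.10 and 0.27, 0.02 and 0.02, and -0.16 and 0.01 in that order. Partners thus lay farther apart at P8 for Col4a3 and Col4a4 and for Col6a1 and Col6a2.

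The knockout folds of members called in the m6A comparison are given as a description, and a difference between these groups was not tested. The 11 genes lower in the immunoprecipitate had a median exon fold of 0.05 at P12 (range -0.13 to 0.14) and 0.07 in ovary, with 7 and 9 of them above 0, from the authors' deposited tables. Of the 30 called neither way, 29 were measured at P12 with a median of -0.01 and 13 above 0, and 26 in ovary with a median of 0.11 and 20 above 0. At P8 the medians over the wild type were 0.04 for the 11 and 0.02 for the others, and over the heterozygote -0.01 and 0.002. Col23a1 and Col8a2, the 2 called higher, had 0.08 and 0.02 at P12 and 0.04 and 0.20 in ovary.

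Among genes that make, process and bind collagen, 1 passed in all knockout comparisons together. These lists hold enzymes and chaperones of collagen folding and secretion, procollagen processing and crosslinking enzymes, matrix proteases and their inhibitors, collagen receptors, matrix partners and TGF-beta pathway genes. At P12 (0.849% of all genes) and at P8 over the wild type (0.035%) and over the heterozygote (0.045%) 0 of their members passed. In ovary, where 0.536% of all genes passed, 1 did, so these counts are no result about the lists: Aspn, which codes for asporin, a small proteoglycan that binds collagen, rose by 0.59 (adjusted p = 0.0474, authors' deposited table from DESeq2). There 15 of 17 matrix partners were above 0, with a median of 0.14, and 19 of 21 modification and secretion genes at the count floor were above 0, with a median of 0.12.

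The m6A comparison gave more calls in these lists, and differences between lists were not tested. Of 17 matrix partners 11 passed as lower and 0 as higher, including Dcn (decorin) at -1.71 and Lamb1, a laminin chain, at -1.34 in the authors' deposited table. Of 22 modification and secretion genes tested, 9 passed as lower and 1, P3h3, as higher; Sec23a, part of the coat of secretory vesicles, had -2.00 and Ppib, a proline isomerase that aids collagen folding, -1.67. Of 13 processing and crosslinking genes, 4 passed as lower, with Pcolce, an enhancer of procollagen cleavage, at -1.41, and 2 as higher, Loxl1 and Loxl4, at 1.26 and 1.25. Of 9 degradation genes tested 5 passed as lower and Mmp14, a membrane-bound collagenase, as higher at 0.53. Of 8 receptors 2 passed as lower and 2 as higher, Itga11, a subunit of a collagen-binding integrin, at 1.67 and Lair1 at 1.52. In the TGF-beta list 5 of 11 passed as higher, among them Smad3 at 1.90 and Ctgf at 1.74, and 1, Tgfbr1, as lower at -0.96, per the authors' deposited table. These counts stand beside backgrounds of 26.9% higher and 26.3% lower.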

How the data were processed

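The 4 mouse tables hold the authors' own comparisons per gene feature and no values per library. Per the file headers each gives a mean normalized count (a signal averaged over the table's libraries), a log2 fold and an adjusted p-value. The submitters' processing notes name DESeq2 and mm10, and cutadapt for ovary; their versions, the read aligner and the counting are not stated. The authors' log2 folds appear drawn toward 0, so sizes are not strictly comparable between tables. Headers of the P8 and P12 tables carry the words IP and input although the labels list total RNA; here they are taken as knockout over control.

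The planned count models could not be run, and the authors' adjusted p-values were used with a threshold of 0.05. Medians used genes with a mean count of at least 10. In the m6A table the adjusted p of sense exons never falls down the rows within each age, so the 3 ages cannot all follow the gene names. Adjusted p is given at P8 for exactly the rows above a mean count of 14.4, as a filter on that mean gives, while 2271 rows at P12 and 779 at P20 with a mean below 10 hold one, so only the P8 columns were tied to genes. The P12 and P20 columns and the Bind-N-Seq file were not used. Named genes were those that passed, the 5 highest and lowest folds at a mean count of at least 100, the 8 with the most counts, and adjacent pairs. Members and lists were chosen with earlier results of these data known, and the heterozygote against wild type at P8 was added after seeing the data. Tables were read with Python 3.11.15 and pandas 2.3.3; the counting of calls was tested on simulated data. Alternatives were thresholds of 0.1 and 0.01, other count floors, centred folds, introns, and leaving out type IV genes.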

Additional observations from a re-analysis of the deposited data

How the results depend on the processing

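Counts of collagen genes passing stayed at 0 in the 4 knockout comparisons for exons at thresholds of 0.1 and 0.01. They stayed at 0 for introns at 0.05. Introns were not counted at other thresholds, and that of Col6a5 in ovary lay under 0.1 (DESeq2 adjusted p = 0.0968). Medians of exon folds kept their sign and moved by at most 0.05 with no count floor, a floor of 100, centring on all genes and, in the knockout comparisons only, without type IV, which was not run for m6A. Introns in place of exons moved 3 values, and the cause was not tested: the P12 median went from 0.0101 to -0.00915, the m6A median from -0.37 to 0.15, and the count of m6A calls from 13 to 0, where only 25 introns had an adjusted p. At a threshold of 0.1, Col6a6 (0.69) and Col7a1 (-1.00) also passed in m6A, and at 0.01 all 13 calls stood. No paired analysis was possible because the tables hold no values per library, and leaving out a replicate could not be run for the same reason. Few libraries (1 to 3 a group) limit what could pass.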
